A study of Mus musculus with 27 samples.

Results

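Oxidative phosphorylation genes code for the 5 protein complexes of the inner mitochondrial membrane that carry electrons to oxygen and make ATP. They were taken by symbol from the linear RNA table, as the mt-Nd, mt-Co, mt-Cytb and mt-Atp genes of the mitochondrial genome and the Nduf, Sdh, Uqcr, Cox and Atp5 genes of the nuclear genome, without the Ndufaf assembly factors. A member needed at least 1 TPM (the share of a gene's transcripts in a library, adjusted for transcript length and scaled to a fixed total) in at least 5 of the 27 libraries. This gave 97 of the 21742 genes in the table, 13 of them mitochondrial and 84 nuclear encoded, and all 97 stood at 1 TPM or more in every library. Cox8c matched by symbol and fell below the minimum, and the lowest member was Cox7b2, with a mean of 4.78 TPM in the Saline group. Complex I is represented by 7 mitochondrial and 36 nuclear encoded genes, complex II by 4 nuclear encoded genes, complex III by 1 and 8, complex IV by 3 and 19, and complex V by 2 and 15. Atp5s and Atp5sl carry an Atp5 symbol without being subunits. The choice used symbols and a minimum level only, not a difference between groups.

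Linear and circular RNA were measured in a mouse model of severe asthma, in left lung lobes taken from 87-day-old BALB/c AnNHsd animals after 35 days of protocol. Mice of the Saline group (n = 5) were not sensitized, and mice of the CDG_HDM group (n = 10) were sensitized with house dust mite extract and cyclic di-GMP, a bacterial second messenger that served as mucosal adjuvant. The Dex_CDGHDM group (n = 6) was additionally given dexamethasone, a glucocorticoid, intraperitoneally at 3 mg/kg, in 3 doses (days 11, 18 and 25). On those days the AM155 group (n = 6) was given 3 doses of an antisense oligonucleotide against miR-155, intravenously at 2 mg/kg and in lipid nanoparticles. Sensitization of the AM155 group is not spelled out in its labels, and a group with vehicle or empty nanoparticles is not analysed here. The labels number the samples within a group without stating that each came from its own mouse, so p-values measure the spread between these samples.

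Markers of lung were present in every library. Sftpc, a surfactant gene of alveolar type 2 cells, ranged from 12703.4 to 24047 TPM, and Scgb1a1, a club cell gene, from 18382 to 76730.3 TPM. TPM holds no read counts, so the depth behind each value is unknown. Of the TPM scale, 9.57% to 11.1% lay outside the linear and circular tables in the Saline libraries. This share was 15.2% to 32.8% for CDG_HDM, 13.8% to 27.7% for AM155 and 13.0% to 27.9% for Dex_CDGHDM. Saline libraries are thus separated from all others in the share that the tables hold, and the counts of the first comparison are also given under 4 other scalings of the linear table. AM155 5, AM155 6 and Dex_CDGHDM 4 stood apart with circular RNA sums above 200000 TPM, and AM155 6 had the lowest linear sum, 542264 TPM.

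In oxidative phosphorylation, complex I (NADH dehydrogenase) and complex II (succinate dehydrogenase) pass electrons to ubiquinone, complex III hands them to cytochrome c, and complex IV (cytochrome c oxidase) reduces oxygen. Complex V (ATP synthase) uses the resulting proton gradient. Mitochondrial DNA is transcribed as long RNAs that are cut into messages, while the nuclear encoded subunits are transcribed gene by gene and imported as proteins. Several complex IV subunits exist as paired isoforms, one found in most tissues and one restricted to tissues such as heart and skeletal muscle.

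The mitochondrial genes lie next to each other, and some share bases, which bears on how far their values are separate measurements. In GENCODE M21 (GRCm38), mt-Atp8 (chrM:7766-7969, plus strand) and mt-Atp6 (chrM:7927-8607, plus strand) share 43 bases, which is 21.1% of mt-Atp8. The shared bases are in capitals in the sequence of mt-Atp8, shown because both complex V genes of this genome are compared below.
mt-Atp8: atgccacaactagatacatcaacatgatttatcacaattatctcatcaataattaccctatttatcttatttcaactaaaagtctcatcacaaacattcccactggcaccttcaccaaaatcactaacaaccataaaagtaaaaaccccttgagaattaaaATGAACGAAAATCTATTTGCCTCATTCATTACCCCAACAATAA
Smaller overlaps join mt-Nd4l and mt-Nd4 (7 bases), mt-Atp6 and mt-Co3 (1 base), and mt-Nd5 and mt-Nd6 (14 bases on opposite strands). The labels describe stranded libraries, but the strand setting of the quantification is not given in the sources used here. Mitochondrial genes also have near-identical copies in the nuclear genome, and how the authors assigned reads that match both is not given either, so the level of each mitochondrial gene carries that uncertainty.

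Nuclear encoded isoform pairs on which the results turn are shown by their promoters, the 250 bases before and 50 after the gene start (RefSeq, GRCm38.p6). They are Cox8b (chr7:140900397-140900696, minus strand) with its widely expressed partner Cox8a (chr19:7217567-7217866, minus strand), and Cox7a1 (chr7:30183921-30184220, plus strand) with Cox7a2 (chr9:79759804-79760103, minus strand). Capitals mark matches, on either strand, to the motifs described after them.
Cox8b: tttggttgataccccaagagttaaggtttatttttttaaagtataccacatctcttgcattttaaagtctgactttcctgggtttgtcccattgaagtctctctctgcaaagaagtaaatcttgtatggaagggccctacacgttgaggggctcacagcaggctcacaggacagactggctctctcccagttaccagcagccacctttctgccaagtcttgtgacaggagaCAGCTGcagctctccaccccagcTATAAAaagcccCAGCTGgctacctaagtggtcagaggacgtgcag
Cox8a: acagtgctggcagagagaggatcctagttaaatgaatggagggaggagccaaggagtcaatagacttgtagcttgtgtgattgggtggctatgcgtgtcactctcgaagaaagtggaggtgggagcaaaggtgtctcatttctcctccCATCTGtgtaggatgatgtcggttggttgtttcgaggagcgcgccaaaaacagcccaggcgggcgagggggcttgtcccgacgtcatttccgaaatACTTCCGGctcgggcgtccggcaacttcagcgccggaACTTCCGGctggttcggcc
Cox7a1: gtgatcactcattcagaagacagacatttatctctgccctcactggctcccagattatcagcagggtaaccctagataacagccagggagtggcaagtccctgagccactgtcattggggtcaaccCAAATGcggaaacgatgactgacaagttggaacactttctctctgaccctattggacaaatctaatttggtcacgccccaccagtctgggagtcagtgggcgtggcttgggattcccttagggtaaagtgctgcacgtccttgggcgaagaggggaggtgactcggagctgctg
Cox7a2: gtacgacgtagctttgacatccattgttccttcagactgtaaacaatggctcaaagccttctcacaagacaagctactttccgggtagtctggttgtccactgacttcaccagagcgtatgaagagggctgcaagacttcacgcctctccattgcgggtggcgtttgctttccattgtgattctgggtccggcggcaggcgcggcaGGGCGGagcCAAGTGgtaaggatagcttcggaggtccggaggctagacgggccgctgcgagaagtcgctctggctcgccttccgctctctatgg
The window of Cox8b held the TATA motif TATAAA, with a CANNTG (E-box) match on each side of it. This TATAAA and the CANNTG match that follows it lie after the annotated gene start, not before it. The window of Cox8a held CCGGAAG (the core of ETS and GABP sites) at 2 places and a CANNTG match. The window of Cox7a1 held a single CANNTG match, and that of Cox7a2 held GGGCGG (the core of SP1 sites) and a CANNTG match.

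Promoters were matched for 67 of the 84 nuclear encoded members, in 72 windows, against 32851 windows of the same length in the whole table. The nuclear respiratory factor 1 (NRF1) motif was in 25.0% of the members' windows and in 4.6% of all windows. CCGGAAG was in 22.2% and 8.86%, GGGCGG in 38.9% and 35.7%, CANNTG in 68.1% and 72.3%, and TATAAA in 11.1% and 13.6%. A stricter form of the NRF1 motif, with its middle base fixed and therefore contained in the first, was in 6.94% and 0.971%. CCGGAAGT, which contains CCGGAAG, was in 6.94% and 3.89%. The MEF2 motif, named for the muscle factor that binds it, was searched as a fixed sequence without variable bases. It was in none of the members' windows and in 0.164% of all. A sequence this rare cannot show whether the members lack MEF2 sites. Cox6a2, Cox4i2 and Ndufa4l2 were among the members without a matched promoter, so their windows were not searched. A match describes the letters of the window and not the binding of a factor.

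The first comparison asked how these genes differed between sensitized and unsensitized lung (CDG_HDM minus Saline). RNA of all 13 mitochondrial encoded genes fell, by 0.31 to 0.69 on the log2(TPM + 1) scale, and RNA of 26 of the 84 nuclear encoded genes fell. Under 4 other scalings, described further on, 8 to 10 mitochondrial and 13 to 26 nuclear encoded genes fell, where 15.5% to 24.2% of all genes were called lower. No member rose on the deposited scale, but 4 to 9 nuclear encoded genes did under these scalings, where 20.7% to 26.2% of all genes were called higher. The nuclear encoded genes with the largest changes were isoforms of complex IV, Cox8b, Cox7a1 and Cox6a2, the muscle forms of subunits VIII, VIIa and VIa. Calls are those of limma at a Benjamini-Hochberg adjusted p of 0.05 or less over all 17437 genes tested. Of all genes 32.2% were called, 22.8% lower and 9.35% higher, and the median change of all genes was -0.10. The median was -0.43 over the mitochondrial encoded genes and -0.17 over the nuclear encoded genes, of which 31.0% were called. In bulk lung, fewer cells of a type and less RNA per cell cannot be told apart, and a change on this scale understates that of genes at low levels.

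The 7 complex I genes of the mitochondrial genome code for the membrane arm of the NADH dehydrogenase, and their median change was -0.59. mt-Nd5 (chrM:11742-13565) stood at 203, 228, 214, 213 and 256 TPM in Saline 2, 4, 5, 8 and 10, and at 127, 148 and 185 TPM in the lowest, median and highest CDG_HDM library. Every CDG_HDM library was below every Saline library, and mt-Nd5 fell by 0.58 ± 0.11 (SE) on the log2 scale (limma, adjusted p = 8.97e-05). Among all genes 8.92% had their CDG_HDM libraries wholly below the Saline libraries. mt-Nd2 (chrM:3914-4951) stood at 558, 721, 615, 601 and 711 TPM in Saline and at 346, 427 and 494 TPM in CDG_HDM. It fell by 0.61 ± 0.12 (adjusted p = 0.000137), again without overlap of the groups.

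mt-Nd3 (chrM:9459-9806) was the most abundant complex I message, at 3072, 4791, 2904, 2966 and 3578 TPM in Saline and 1344, 2183 and 2743 TPM in CDG_HDM. It fell by 0.63 ± 0.13 (limma, adjusted p = 0.000353), and the groups did not overlap. The library CDG_HDM 4 held the lowest value. mt-Nd4 (chrM:10167-11544) fell by 0.59 (adjusted p = 0.000139) without overlap, while mt-Nd4l and mt-Nd1 fell by 0.46 and 0.40 with overlapping groups (adjusted p = 0.00276 and 0.00251).

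mt-Nd6 is the only member transcribed from the other strand of the mitochondrial genome (chrM:13552-14070, minus strand). It stood at 190, 403, 342, 385 and 488 TPM in Saline and at 129, 231 and 346 TPM in CDG_HDM. Saline 2 lay below the CDG_HDM median, so the groups overlapped. Its fall of 0.69 ± 0.25 (limma, adjusted p = 0.0339) carried the largest standard error of the 13 genes. The call was lost without any 1 of Saline 4, 5, 8 and 10 or CDG_HDM 8, 10 and 14, with an adjusted p of up to 0.123 without Saline 10.

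mt-Cytb (chrM:14145-15288), the cytochrome b of complex III, fell by 0.40 ± 0.10 (limma, adjusted p = 0.00182), from 688 to 845 TPM in Saline to 514 to 708 TPM in CDG_HDM. The ranges overlapped. The 3 complex IV genes code for the catalytic core of cytochrome c oxidase and had a median change of -0.33. mt-Co3 (chrM:8607-9390) stood at 4441, 4957, 4333, 4161 and 4813 TPM in Saline and at 2850, 3557 and 4102 TPM in CDG_HDM. It fell by 0.33 ± 0.09 (adjusted p = 0.00706) with no overlap.

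mt-Co2 (chrM:7013-7696) fell by 0.33 (limma, adjusted p = 0.00719) without overlap. mt-Co1 (chrM:5328-6872) fell by 0.31 ± 0.10 (adjusted p = 0.0131) with overlap, and its call was lost without Saline 10 (adjusted p = 0.0564). Of the complex V genes, which code for the proton channel and its partner subunit, mt-Atp6 fell by 0.43 ± 0.11 (adjusted p = 0.00272). mt-Atp8 stood at 6248, 7197, 6669, 6376 and 7772 TPM in Saline and at 4364, 5160 and 7085 TPM in CDG_HDM. The library CDG_HDM 3 reached into the Saline range. mt-Atp8 fell by 0.38 ± 0.12 (adjusted p = 0.0135), a call lost without Saline 10 (adjusted p = 0.0542).

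**Figure D1:**
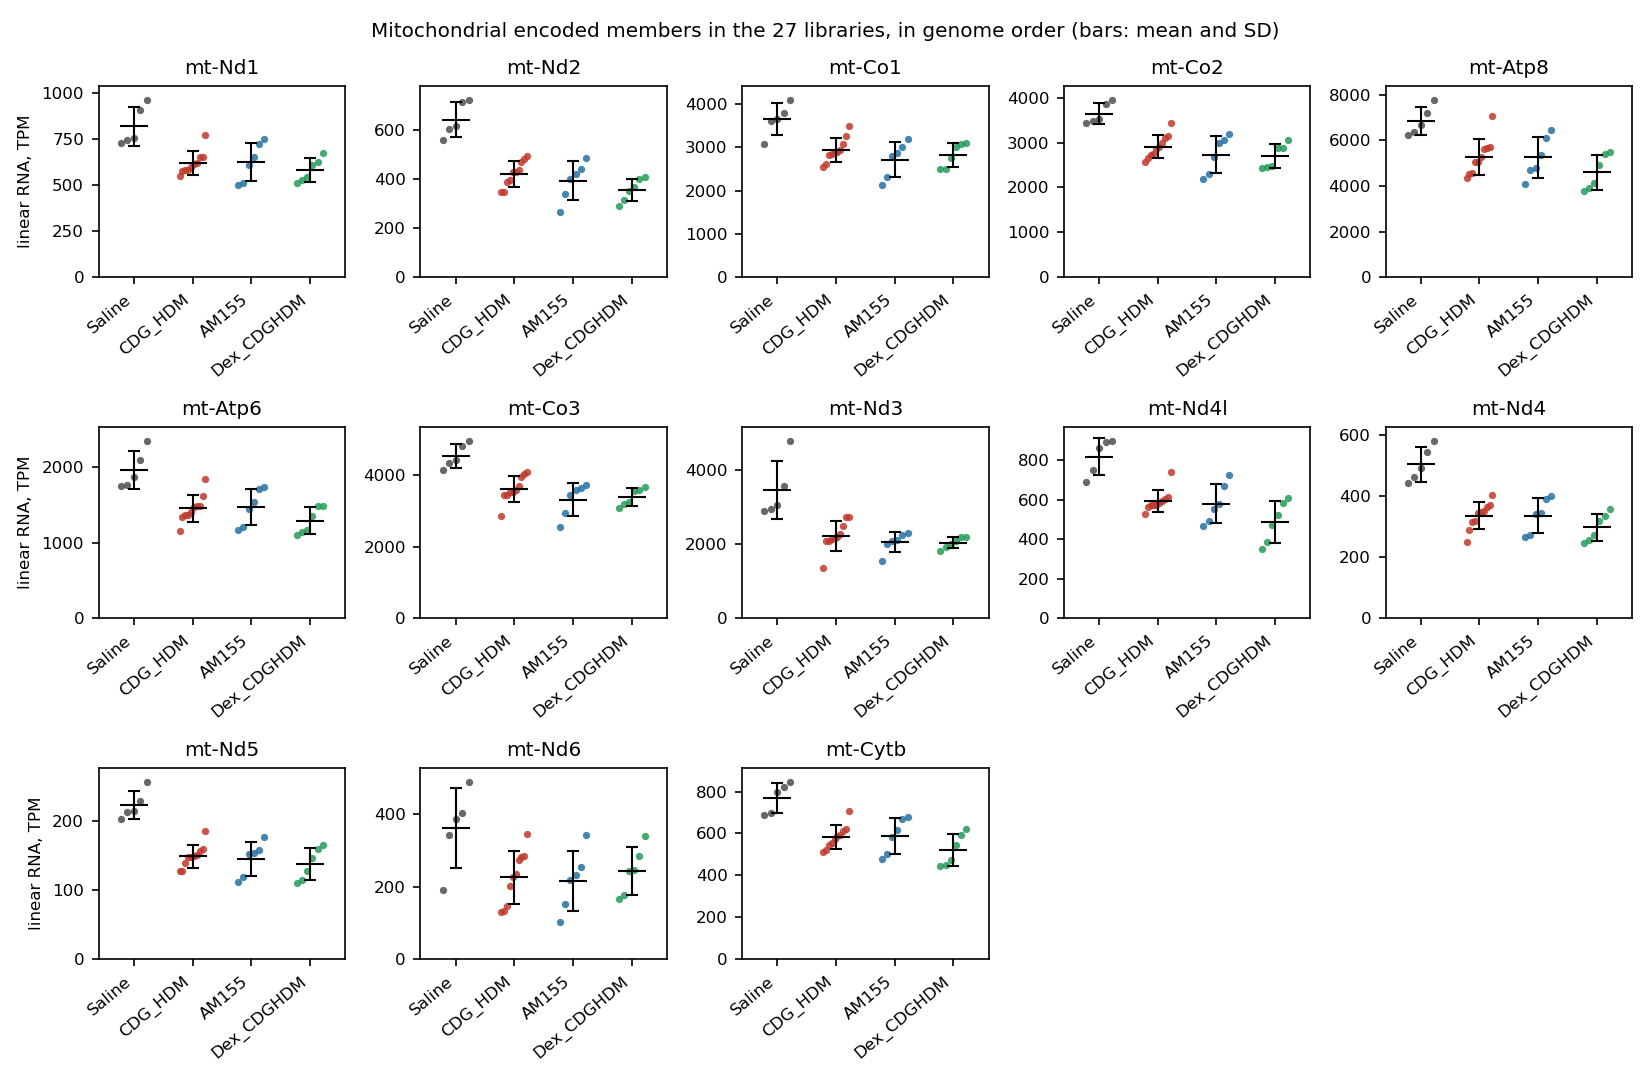
Level of each of the 13 mitochondrial encoded genes in every library, in TPM, by group, with 1 point per library and the group mean with its SD. Axes start at 0 and are scaled per gene. The Saline points lie above the CDG_HDM points without overlap for 6 of the 13 genes, mt-Nd2, mt-Nd3, mt-Nd4, mt-Nd5, mt-Co2 and mt-Co3.

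The nuclear encoded subunits of complex I are the core and accessory proteins imported into mitochondria. Here 11 of 36 fell, beside 22.8% of all genes called lower, with a median of -0.18 over the 36. The calls ran from Ndufa5 (-0.35) and Ndufb9 (-0.30) to Ndufa7 and Ndufs6 (both -0.24), which are given here after their values were seen. Ndufs1, the largest core subunit, was not called, at -0.20 with a 95% interval of -0.39 to -0.02 (limma, adjusted p = 0.0857). None of the 4 subunits of complex II, the enzyme shared with the citric acid cycle, was called. Sdha, its flavoprotein, stood at 92.0, 75.4, 92.4, 89.7 and 91.3 TPM in Saline and at 69.4, 80.5 and 88.2 TPM in CDG_HDM. The intervals of its change (-0.13, -0.31 to 0.04) and of those of Sdhc (-0.08, -0.27 to 0.11) and Sdhd (0.06, -0.11 to 0.23) included 0. That of the iron-sulfur subunit Sdhb (-0.18, -0.36 to -0.01) did not, although its adjusted p of 0.0983 missed the threshold.

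In complex III, 3 of 8 nuclear encoded genes fell, Uqcr11 (-0.31), Uqcrb (-0.30) and Uqcr10 (-0.26), named after their values were seen. Uqcrc1, a core subunit, was not called (-0.16, interval -0.32 to 0.01; limma, adjusted p = 0.138), although every CDG_HDM library, at 78.7 to 93.0 TPM, lay below every Saline library, at 94.2 to 104.7 TPM. In complex V, 4 of 15 nuclear encoded genes fell, Atp5j (-0.32), Atp5g1 (-0.29), Atp5k (-0.27) and Atp5h (-0.25), all but Atp5g1 named after their values were seen. Among all genes 22.8% were called lower. Only Uqcr11 and Atp5j, of the genes called in complexes III and V, kept the call under all 4 scalings described further on. Atp5g1, Atp5g2 and Atp5g3 code for the same ring subunit of the ATP synthase. Atp5g1 fell by 0.29 ± 0.09 (adjusted p = 0.0124), while the changes of Atp5g2 (0.07, interval -0.10 to 0.25) and Atp5g3 (-0.05, -0.22 to 0.11) were not called. The catalytic subunit Atp5b stood at 359 ± 15.0 TPM (SD, n = 5) in Saline and 316 ± 22 TPM (n = 10) in CDG_HDM and was not called (-0.19, interval -0.37 to -0.01, adjusted p = 0.101). Over the nuclear encoded genes, 19 of 84 had no overlap between CDG_HDM and Saline, always with CDG_HDM below, beside the 8.92% of all genes.

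**Figure D2:**
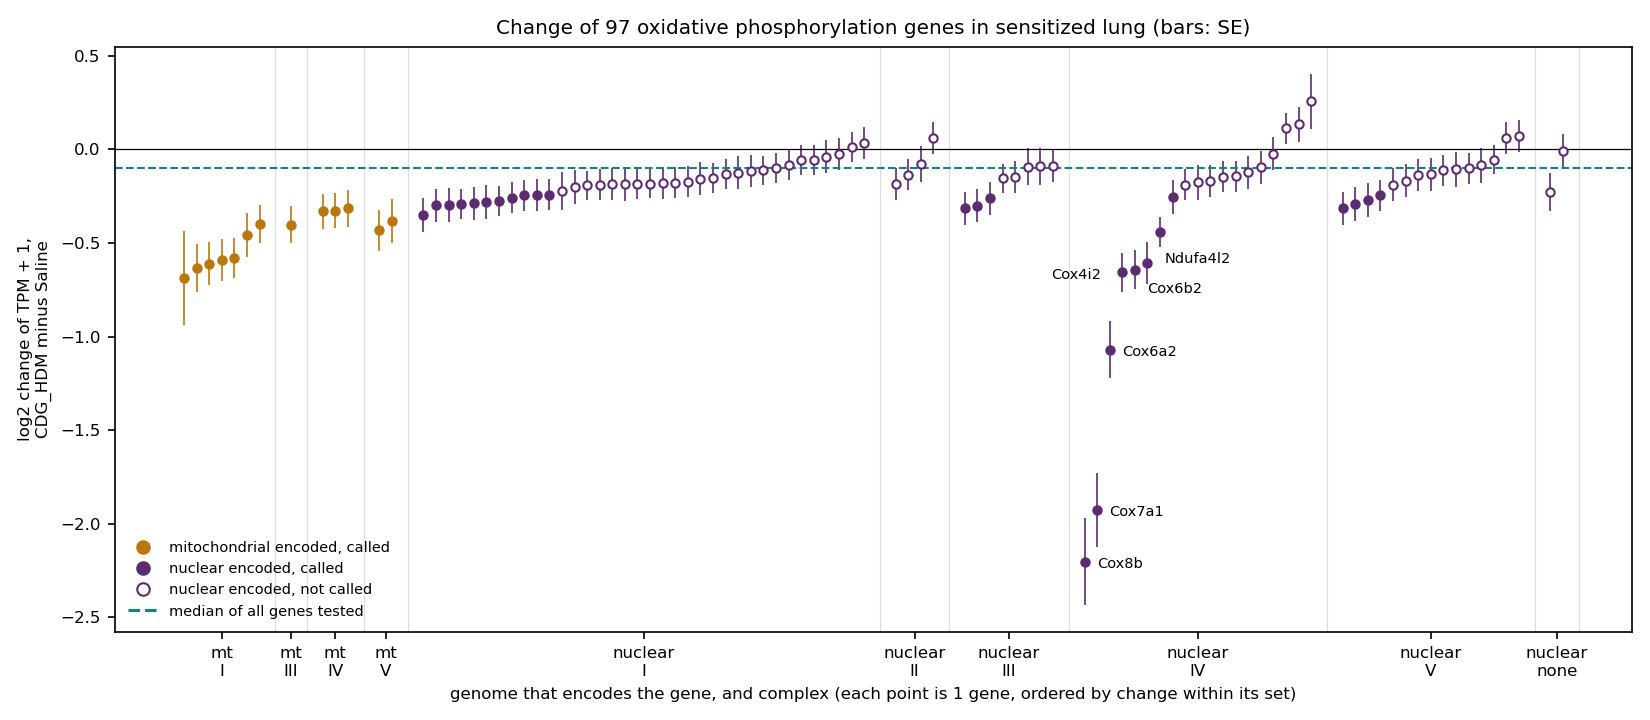
Change of each of the 97 genes between CDG_HDM and Saline on the log2(TPM + 1) scale, with its SE, arranged by genome and complex, with filled points for called genes and open points for the rest. The dashed line is the median change of all genes, -0.10, and the mitochondrial encoded genes lie below it, as do the complex IV isoforms Cox8b, Cox7a1 and Cox6a2 at -2.20, -1.93 and -1.07.

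In complex IV, 8 of 19 nuclear encoded genes fell, beside 22.8% of all genes called lower. Of the 8, 7 belong to isoform pairs or to Ndufa4 and its paralog Ndufa4l2. The other, named after its value was seen, was Cox6c (-0.26). Cox8b (ENSMUSG00000025488.9, chr7:140898945-140900446, minus strand) stood at 119, 129, 103, 54.3 and 95.3 TPM in Saline 2, 4, 5, 8 and 10. In CDG_HDM its lowest, median and highest values were 11.8, 19.7 and 34.2 TPM. The groups did not overlap, and Cox8b fell by 2.20 ± 0.23 on the log2 scale (limma, adjusted p = 1.82e-08). Its partner Cox8a was not called, at 374 TPM in Saline and 368 TPM in CDG_HDM on average (-0.02, interval -0.20 to 0.16). Cox8b made up 20.8% ± 4.39 (SD, n = 5) of the TPM of this pair in Saline and 5.44% ± 1.84 (n = 10) in CDG_HDM.

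Cox7a1 (chr7:30184144-30186078, plus strand) stood at 137, 177, 138, 63.7 and 123 TPM in Saline and at 22.7, 30.9 and 48.3 TPM in CDG_HDM. It fell by 1.93 ± 0.20 (limma, adjusted p = 1.26e-08), again with no overlap. Its partner Cox7a2, the liver form found in most tissues, missed the threshold (-0.19, interval -0.36 to -0.02, adjusted p = 0.0829). The Cox7a1 share of the pair was 35.6% ± 7.2 in Saline and 14.0% ± 3.06 in CDG_HDM. Cox6a2 (chr7:128205435-128206387, minus strand) stood at 43.7, 51.0, 41.1, 21.2 and 38.2 TPM in Saline and at 14.0, 17.7 and 20.1 TPM in CDG_HDM. It fell by 1.07 ± 0.15 (adjusted p = 3.27e-06) without overlap, and Cox6a1 was not called (-0.18, interval -0.37 to 0.01).

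Saline 8 held the lowest Saline value of Cox8b, Cox7a1 and Cox6a2. The 18 genes of a cardiac muscle list, among them the myoglobin gene Mb and the natriuretic peptide gene Nppa, moved with these isoforms. All 18 fell, with a median of -2.08, and their summed level was 759.5 to 2066.5 TPM in Saline and 154 to 553 TPM in CDG_HDM. Saline 8 held the 759.5 TPM, and the other Saline libraries held at least 1825 TPM. An adipocyte list, of which 8 of 10 genes fell, summed to 319 to 501 TPM in Saline and 73.8 to 167 TPM in CDG_HDM. None of these markers was at 0 in every library. Their part in the change of the isoforms was not tested. Without Cox8b, Cox7a1 and Cox6a2, 23 of the other 81 nuclear encoded genes were called lower, beside 22.8% of all genes. The median of the 81 was -0.17.

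Cox4i2 (chr2:152754173-152765037, plus strand), the form of subunit IV known from lung and from low oxygen, stood at 89.0, 91.5, 94.9, 92.6 and 91.6 TPM in Saline and at 50.1, 58.0 and 74.3 TPM in CDG_HDM. The Saline libraries lay close together and wholly above the others, and Cox4i2 fell by 0.66 ± 0.11 (limma, adjusted p = 1.54e-05). Its partner Cox4i1 was not called (-0.12, interval -0.30 to 0.06). Saline 8 was not low for Cox4i2. Cox6b2, a form known from testis, fell by 0.64 ± 0.10 (adjusted p = 1.78e-05), from 26.6 ± 2.30 to 16.8 ± 2.55 TPM, and Cox6b1 was not called (-0.15, interval -0.31 to 0.02). Ndufa4, once counted to complex I and now to complex IV, fell by 0.44 ± 0.08 (adjusted p = 8.11e-05), from 377 ± 32.7 to 278 ± 23.2 TPM, without overlap. Its paralog Ndufa4l2, known to respond to low oxygen, fell by 0.61 ± 0.11 (adjusted p = 0.000108), from 28.6 ± 0.961 to 18.7 ± 3.59 TPM. How the authors divided reads that match more than 1 paralog is not given, which leaves the split within a pair uncertain.

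**Figure D3:**
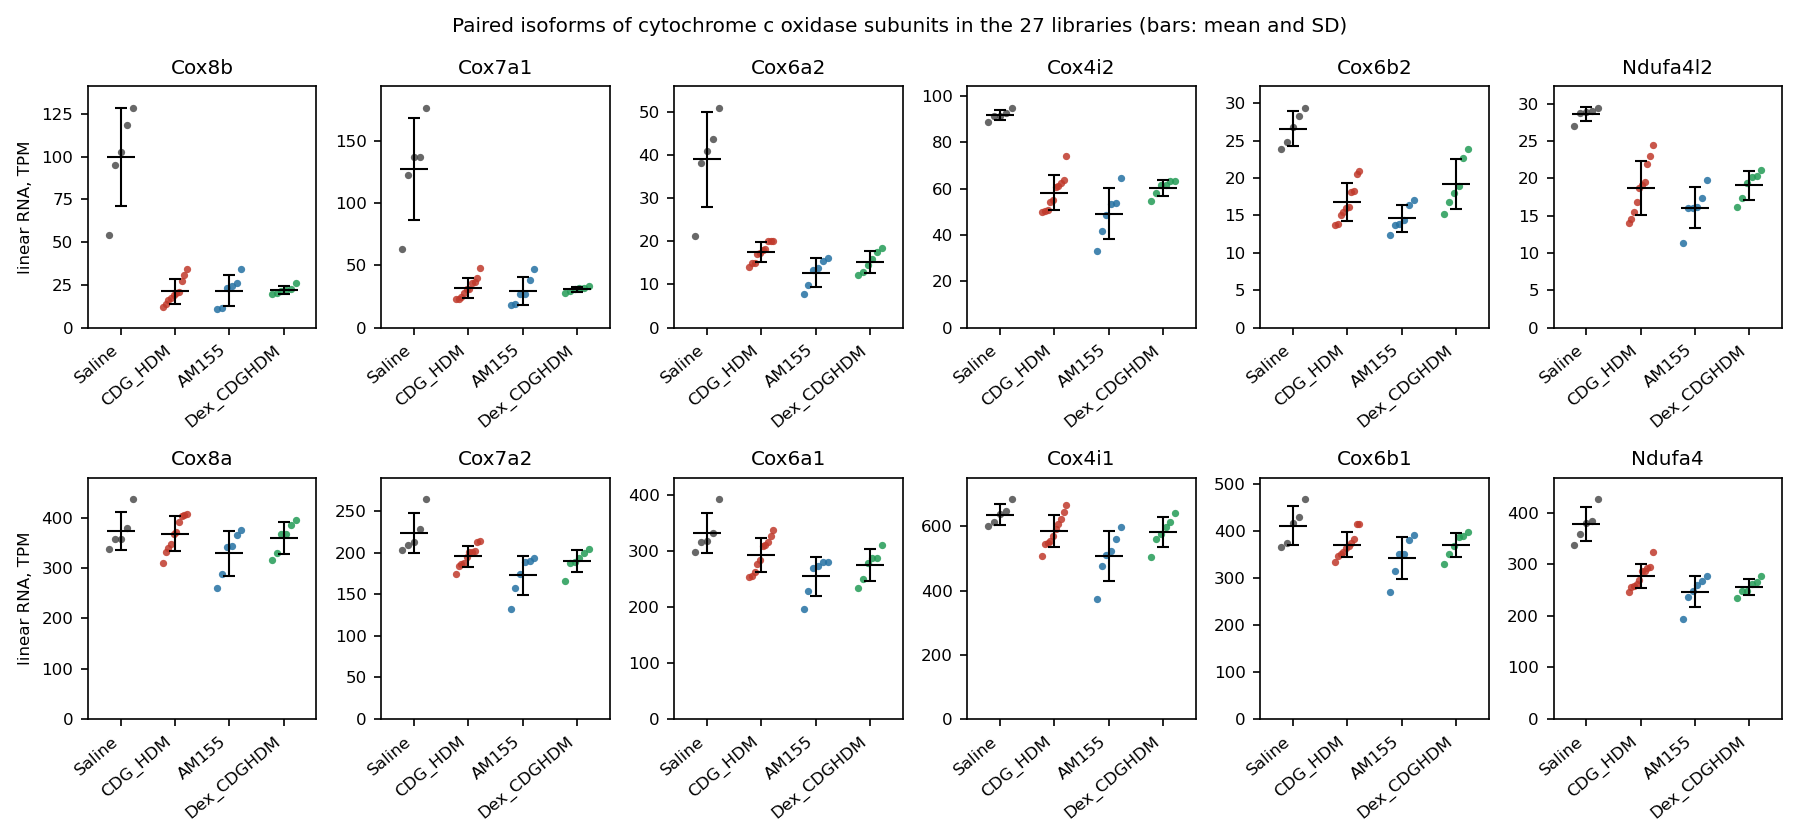
Level in TPM (linear axes from 0, scaled per gene) of 6 complex IV pairs in every library by group, with the restricted isoform above its widely expressed partner, 1 point per library and bars for the mean and SD. The restricted isoforms Cox8b, Cox7a1, Cox6a2, Cox4i2 and Cox6b2 and the paralog Ndufa4l2 lie lower in CDG_HDM than in Saline without overlap. So does the partner Ndufa4, while the ranges of Cox8a, Cox7a2, Cox6a1, Cox4i1 and Cox6b1 overlap.

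Markers of other cell types moved between CDG_HDM and Saline as well, beside 22.8% of all genes called lower and 9.35% called higher. Of the endothelial list all 10 genes fell, with a median of -1.01, and its sum was 1840 to 2191 TPM in Saline and 672 to 1464 TPM in CDG_HDM. Of the smooth muscle list all 9 fell (median -0.95), with sums of 699.5 to 931 and 203 to 508 TPM. Of the macrophage list 9 of 10 rose (median 1.57), with sums of 385 to 445 and 1139 to 2514 TPM. All 8 erythroid genes fell (median -1.56), as did 7 of 8 alveolar type 1 genes, 6 of 7 club cell genes and 7 of 10 ciliated cell genes, while 8 of 9 T cell genes and 6 of 10 B and plasma cell genes rose. Of 9 alveolar type 2 genes 3 rose and 1 fell, and of 7 neutrophil genes 6 fell. Of the brown adipocyte list 2 of 6 genes were tested, and both fell. None of these lists contains a member, and their part in the members' changes was not tested. The counts and medians of the cell type lists are given on the deposited scale only.

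The level of the mitochondrial genes was also set against that of the nuclear genes within each library, as a description with no test. The 13 mitochondrial encoded genes summed to 26193, 30825, 27129.7, 26167 and 30929 TPM in the Saline libraries and to 17481, 21215 and 26344 TPM in the lowest, median and highest CDG_HDM library. CDG_HDM 3, the highest, reached into the Saline range. The 84 nuclear encoded genes summed to 15602 ± 1286 TPM (SD) over the 5 Saline libraries and 13698 ± 877 over the 10 CDG_HDM libraries. The highest Saline library was Saline 4, at 17655 TPM. The sums were 12426 ± 1657 for AM155 and 13571 ± 962 for Dex_CDGHDM (n = 6 each). How far the nuclear sums lay below Saline depended on the scaling. Once the linear table was rescaled to a common sum, they averaged 13966 ± 1470 TPM for Saline and 13704 ± 670 for CDG_HDM. Dex_CDGHDM then averaged 13966 ± 284 and AM155 13406 ± 504. The mitochondrial sums then averaged 25269 ± 2518 TPM for Saline and 21351 ± 1990 for CDG_HDM. The mean log2(TPM + 1) of the mitochondrial genes exceeded that of the nuclear genes by 3.37 ± 0.12 for Saline and 3.11 ± 0.12 for CDG_HDM. For AM155 it was 3.20 ± 0.15 and for Dex_CDGHDM 3.00 ± 0.17. All 6 Dex_CDGHDM libraries, at 2.70 to 3.13, lay below all 5 Saline libraries, at 3.17 to 3.49. CDG_HDM, at 2.88 to 3.35, and AM155, at 3.06 to 3.46, overlapped with Saline. This difference within a library depends little on its scaling, and after quantile normalization the group means were 3.37, 3.11, 3.18 and 3.02 in the same order. Within the mitochondrial sum, complex I genes held 22.4% to 27.8% in Saline and 19.4% to 22.2% in CDG_HDM, without overlap. The gap was narrow, from 22.18% in CDG_HDM 7 to 22.45% in Saline 2. AM155 5, at 22.85%, lay inside the Saline range, and Dex_CDGHDM 4, at 22.44%, just below it. All other AM155 and Dex_CDGHDM libraries lay lower.

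**Figure D4:**
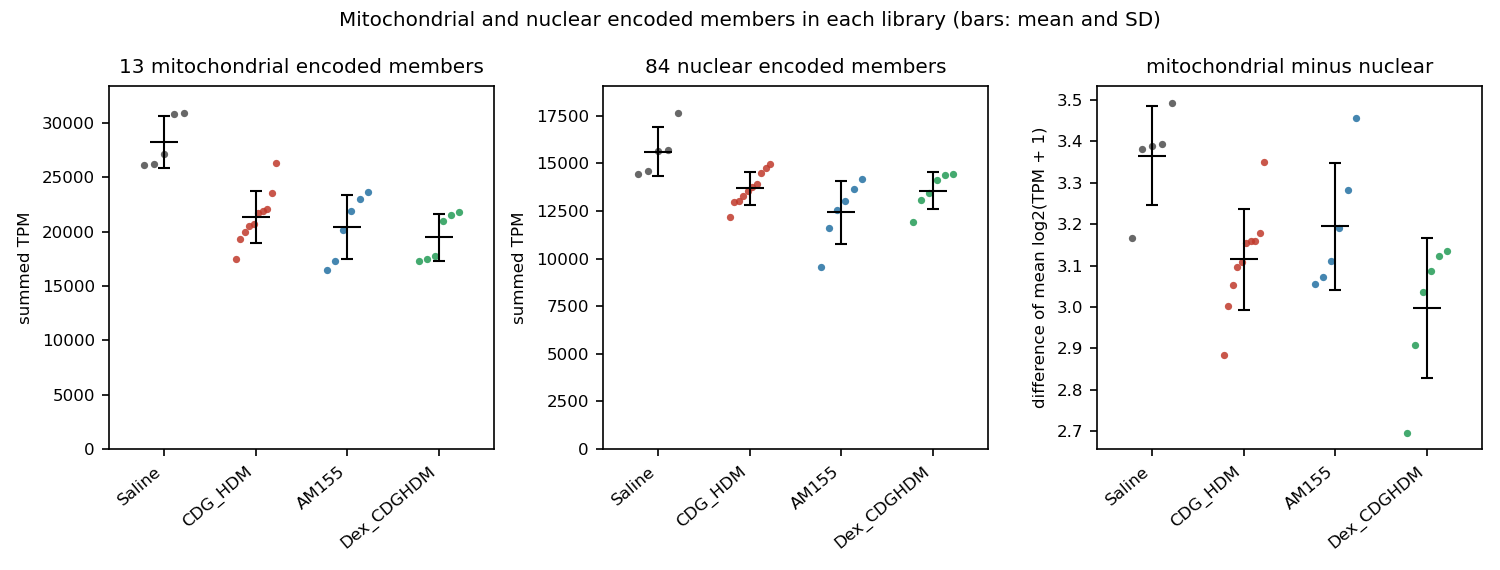
Summed TPM of the 13 mitochondrial encoded genes, summed TPM of the 84 nuclear encoded genes, and the difference of their mean log2(TPM + 1), by group, with 1 point per library and the group mean with its SD. The difference is 3.37 ± 0.12 in Saline and 3.00 ± 0.17 in Dex_CDGHDM, and these 2 groups do not overlap.

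Since the share of the TPM scale outside the tables separated Saline from the other groups, the comparison was repeated under 4 scalings of the linear table. The median change of all genes, -0.10 on the deposited scale, became 0.01 with median-of-ratios factors, 0.04 with a common sum, 0.04 with a common sum without mitochondrial rows, and -0.01 with quantile normalization. In the same order, 9, 8, 8 and 10 of the 13 mitochondrial genes were called lower, with medians of -0.31, -0.27, -0.28 and -0.44. Called lower under all 4 were mt-Nd1, mt-Nd2, mt-Nd3, mt-Nd4, mt-Nd4l, mt-Nd5, mt-Atp6 and mt-Cytb, which makes 8 of the 13. mt-Co3, mt-Atp8 and mt-Nd6 were called under none of them.

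Of the 84 nuclear encoded genes, 14, 13, 14 and 26 were called lower and 4, 9, 8 and 6 higher in that order, with medians of -0.06, -0.01, -0.02 and -0.08. The lower calls were 16.7%, 15.5%, 16.7% and 31.0% of these genes, beside 21.5%, 15.5%, 16.1% and 24.2% of all genes. The nuclear encoded genes thus had a share of lower calls near or below that of all genes under 3 of the 4 scalings. The higher calls were 4.76%, 10.7%, 9.52% and 7.14% of these genes, beside 22.4%, 26.2%, 25.2% and 20.7% of all genes. Of the calls over all genes in either direction, 29.1% were higher as deposited and 51.0%, 62.8%, 61.0% and 46.1% were higher under the scalings. The 13 nuclear genes called lower under all 4 scalings were Cox8b, Cox7a1, Cox6a2, Cox4i2, Cox6b2, Ndufa4 and Ndufa4l2 of complex IV, Ndufa5, Ndufb9, Ndufs7 and Ndufv1 of complex I, Uqcr11 of complex III and Atp5j of complex V. Conversely, 4 genes that were not called on the deposited scale were called higher under all 4 scalings. They were Cox5a, the subunit Va of complex IV (0.13 as deposited, 0.25 to 0.30 rescaled), the supercomplex factor Cox7a2l (0.11, and 0.20 to 0.28), the complex II anchor Sdhd (0.06, and 0.14 to 0.22) and Cox7b2 (0.26, and 0.35 to 0.39), the last named after its values were seen.

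**Figure D5:**
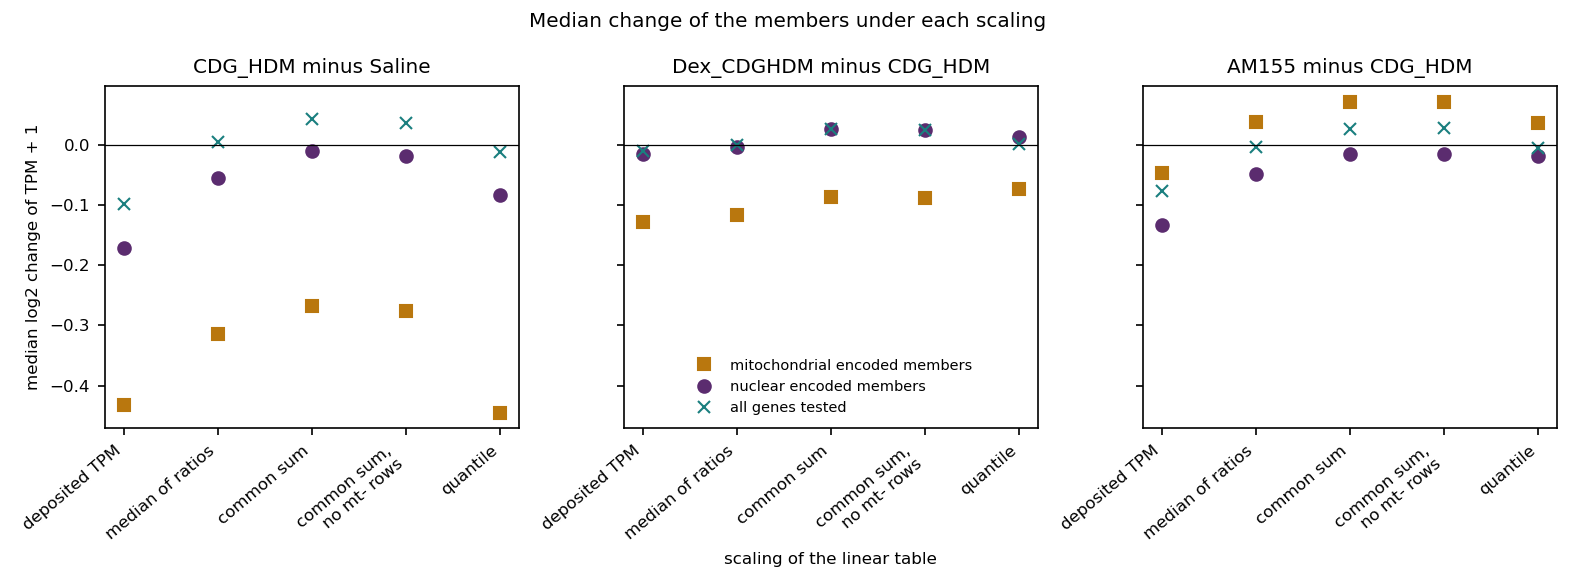
Median change of the 13 mitochondrial encoded genes, the 84 nuclear encoded genes and all genes, on the log2(TPM + 1) scale, as deposited and under 4 scalings, in the 3 main comparisons. Between CDG_HDM and Saline the mitochondrial median stays between -0.44 and -0.27, while the nuclear median moves from -0.17 as deposited to -0.01 with a common sum.

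Dexamethasone was compared with sensitization alone (Dex_CDGHDM minus CDG_HDM). No member was called by limma on the deposited scale, where 0.00573% of all genes were called. No member was called under any alternative run either, where 0 to 64 of all genes were called, the 64 (0.367%) with quantile normalization. The mitochondrial genes had a median of -0.13 with 12 of 13 below 0, and 2 of them had an unadjusted p under 0.05. These were mt-Nd4l (-0.31, interval -0.53 to -0.09, adjusted p = 0.807) and mt-Nd2 (-0.25, interval -0.47 to -0.02). mt-Nd5 stood at 111, 136 and 165 TPM in the lowest, median and highest Dex_CDGHDM library, within and below the CDG_HDM range (-0.13, interval -0.33 to 0.08). mt-Co3, at 3096, 3410 and 3683 TPM, lay inside that range (-0.09, -0.27 to 0.09), and mt-Atp8 changed by -0.20 (-0.43 to 0.03). The nuclear genes had a median of -0.02 with 53 of 84 below 0, and 0 had an unadjusted p under 0.05. The median of all genes was -0.01, and the share of all genes under that unadjusted p is not given here. Cox8b stood at 19.5, 21.9 and 26 TPM (0.12, interval -0.33 to 0.57), which does not reach the Saline range. Cox7a1 likewise stood at 27.7, 31.1 and 33.7 TPM (-0.02, interval -0.40 to 0.37).

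The antimiR-155 comparison (AM155 minus CDG_HDM) also had no member called by limma on the deposited scale, where 0.103% of all genes were called. No member was called under any alternative run either, where 7 to 40 of all genes were called, the 40 (0.229%) with a common sum without mitochondrial rows. The mitochondrial median was -0.05, and 0 mitochondrial genes had an unadjusted p under 0.05. The nuclear median was -0.13 with all 84 below 0 and 23 at an unadjusted p under 0.05, beside a median of -0.08 over all genes, of which 82.4% were below 0. The share of all genes under that unadjusted p is not given here, so whether the 23 exceed it is not known. The lowest adjusted p was 0.548, for Ndufb10 (-0.25), named after its value was seen. Under the 4 scalings the nuclear median lay between -0.05 and -0.01, with 51 to 69 of the 84 genes below 0. Without AM155 6 it was -0.06. Without the 3 libraries of high circular sums, an alternative chosen after seeing the data, it was -0.01 with 48 genes below 0, and all mitochondrial changes were above 0 with a median of 0.11. Cox6a2 stood at 7.80, 13.6 and 16.2 TPM in the lowest, median and highest AM155 library (-0.45, interval -0.75 to -0.16, adjusted p = 0.549). Cox8b, at 10.7, 23.8 and 34.3 TPM, covered the CDG_HDM range (-0.01, interval -0.46 to 0.44).

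The treated groups were set against each other and against Saline with the same model. In Dex_CDGHDM minus AM155, 0 members were called by limma, where 0.0803% of all genes were, and 14 members, 13 of them nuclear encoded, had an unadjusted p under 0.05. The nuclear median was 0.12 with 80 of 84 above 0, and the mitochondrial median -0.09. For this pair, the median of all genes and their shares above 0 and under that unadjusted p are not given here. Against CDG_HDM, the median change of all genes was -0.01 in Dex_CDGHDM and -0.08 in AM155. Whether the nuclear genes differ from all genes in this pair is thus not known. As deposited, the mean log2(TPM + 1) of the nuclear genes was 6.76 in Dex_CDGHDM and 6.63 in AM155. With a common sum it was 6.80 and 6.75. In Dex_CDGHDM minus Saline, 12 of 13 mitochondrial genes fell (median -0.59), the exception being mt-Nd6 (-0.55, interval -1.11 to 0.01, adjusted p = 0.147), and 21 of 84 nuclear genes fell (median -0.18), where 25.1% of all genes were called and 17.5% were lower. In AM155 minus Saline, 13 of 13 and 56 of 84 fell (medians -0.46 and -0.30), where 40.5% were called and 32.7% were lower. The comparisons of this paragraph were run on the deposited scale only, so how far these counts depend on the scaling is not known. In Saline the mean log2(TPM + 1) of the nuclear genes was 6.99 as deposited and 6.83 with a common sum, beside the treated values above. Of the complex II genes 2 of 4 fell in AM155 minus Saline, Sdha (-0.27) and Sdhb (-0.32), while Sdhc (-0.25, interval -0.46 to -0.04; limma, adjusted p = 0.0544) and Sdhd (-0.04, interval -0.23 to 0.15) were not called. All Dex_CDGHDM libraries lay below all Saline libraries for 11 mitochondrial and 22 nuclear genes (12.0% of all genes), and all AM155 libraries for 8 and 32 (12.7% of all genes).

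These comparisons share the Saline libraries, so their values are given side by side only. mt-Nd5 differed from Saline by -0.58 in CDG_HDM, -0.71 in Dex_CDGHDM and -0.63 in AM155. Cox8b differed by -2.20, -2.08 and -2.21, Cox7a1 by -1.93, -1.94 and -2.09, and Cox6a2 by -1.07, -1.26 and -1.52 in the same order. The Cox8b share of its pair with Cox8a was 5.94% ± 1.81 in AM155 and 5.74% ± 0.276 in Dex_CDGHDM, beside 20.8% ± 4.39 in Saline. The cardiac muscle list summed to 200 to 746 TPM in AM155 and 316 to 519.5 TPM in Dex_CDGHDM, below the lowest Saline library in both.

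Other genes of mitochondrial biology were followed between CDG_HDM and Saline by counts and medians, beside 22.8% of all genes called lower and 9.35% called higher. All lists of mitochondrial biology are given on the deposited scale only, so how far their counts and changes depend on the scaling is not known. Of 46 assembly factors of the respiratory chain 4 fell, with Uqcc1 at -0.28 and Ndufaf3 at -0.26, and the median was -0.08. Of 22 genes of mitochondrial DNA expression 1 fell, the RNA helicase gene Supv3l1 (-0.34), with a median of -0.10, and the transcription factor gene Tfam was not called (-0.15; limma, adjusted p = 0.412). Of 78 mitochondrial ribosome genes 5 fell (median -0.09), led by Mrps18a (-0.38) and Mrpl14 (-0.34). These medians lie near that of all genes, -0.10.

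Of 14 regulators of mitochondrial biogenesis 4 fell and 1 rose. The nuclear receptor gene Ppara fell by 0.54 ± 0.10 (limma, adjusted p = 0.000103), from a mean of 4.63 to 2.90 TPM, and the coactivator gene Ppargc1a fell by 0.32 (adjusted p = 0.0122), from 4.11 to 3.09 TPM. Of 12 genes of the mobile electron carriers, ubiquinone and cytochrome c, 2 fell (median -0.18), Pdss2 (-0.34) and Coq2 (-0.24). Of 17 citric acid cycle genes 8 fell (median -0.20), with Pdha1 at -0.40 and Sucla2 at -0.33.

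Of 17 fatty acid oxidation genes 11 fell (median -0.26), led by Cpt1b (-0.89), the muscle form of carnitine palmitoyltransferase, and Acadm (-0.58). Of 20 glycolysis genes 2 rose and 3 fell (median 0.01), and Pfkm (-0.80) and Eno3 (-0.78), the muscle forms, fell most. Of 22 genes of mitochondrial membranes and mass 5 fell (median -0.07), led by the ADP/ATP carrier gene Slc25a4 (-0.55), the form of heart and muscle, and the fusion gene Mfn2 (-0.44). Like the complex IV isoforms, these muscle forms moved beside the cardiac list, whose part was not tested. Mitochondrial ribosomal RNA genes are not analysed here.

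Circular RNA was deposited as a separate TPM table without junction coordinates, so its values are those of a gene symbol and not of a defined circle. It listed 10 of the members, and 2 of them were above 0 in enough libraries to be tested. Circular Ndufs1 was above 0 in 26 of 27 libraries, at a lowest, median and highest level of 38.2, 50.5 and 55.9 TPM in Saline and 20.5, 36.4 and 62.1 TPM in CDG_HDM. The groups overlapped, and it was not called. On log2(circular TPM + 3.48e-06), where a value of 0 lies far below all others, its change was -0.29 ± 2.34 (SE; 95% interval -5.11 to 4.53; limma, adjusted p = 1). With a pseudocount of 1 it was -0.28 ± 0.59 (interval -1.49 to 0.93, adjusted p = 0.865). The only 0 of circular Ndufs1, in Dex_CDGHDM 6, lay outside both groups compared but entered the spread shared by all groups. Neither fit can therefore show that circular Ndufs1 was alike in Saline and CDG_HDM. Circular Sdhc, above 0 in 5 libraries, was not called either (adjusted p = 0.888, and 0.842 with a pseudocount of 1). In that comparison 17 of 2271 circular rows were called, or 21 with a pseudocount of 1. Neither of the members was called in any of the 6 comparisons with either pseudocount.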

How the data were processed

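RNA of the left lung lobe was sequenced as ribosome-depleted, stranded, paired-end libraries, per the labels' protocols. The authors deposited linear and circular RNA levels as TPM, 1 column per library, and all 27 columns matched a sample title. CASAVA 1.9 and the genome build mm10 are named in the submitters' processing notes; aligner, quantifier and annotation: not given in the sources used here. TPM is no count and the depth is unknown.

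Here log2(TPM + 1) was fitted, for the 17437 genes reaching 1 TPM in 5 or more libraries, with limma 3.58.1 (trend, 4 groups, R 4.3.3). Tests were two-sided, with Benjamini-Hochberg adjustment over all genes and a threshold of 0.05. Circular rows above 0 in at least 5 libraries were fitted likewise, but on log2(circular TPM + 3.48e-06), a pseudocount taken as the typical lowest nonzero value of a library (its median), with a pseudocount of 1 as alternative. Groups came from the sample titles. Same-numbered libraries of different groups had correlations of their deviations of -0.239 to 0.274, so numbers were not taken as pairs. Named were all 13 mitochondrial genes, up to 5 called nuclear genes per direction and main comparison by size of change, the complex II subunits, isoform groups and 1 core subunit per complex, 2 genes per other list, and Tfam and Ppargc1a. The members and lists were chosen with earlier results of these data known. Coordinates are from GENCODE M21 (GRCm38), which matched 96 of the 97 members; sequences are from the GRCm38 genome and RefSeq promoters (GRCm38.p6), searched for 8 motifs. Tables and figures were made with Python 3.11.15, pandas 2.3.3 and matplotlib 3.10.9, and the fit was tested on simulated data. Alternatives were the pseudocount, filter, scaling, moderation, groups in the fit, replicate block and left-out libraries.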

Additional observations from a re-analysis of the deposited data

Results flagged for a closer look

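In 40 measures over 160 groups of libraries, 7 groups had 1 library far from the others by Dixon's criterion, which by chance flags about 1 in 20 groups. In CDG_HDM 3, mt-Atp8 stood at 7084.84 TPM (next library 5695), mt-Nd1 at 772.255 TPM (next 650.0) and mt-Nd4l at 737.922 TPM (next 614). In CDG_HDM 4, mt-Co3 stood at 2850.49 TPM (next 3439) and mt-Nd3 at 1344.3 TPM (next 2076). Among the Saline libraries, Ndufa4l2 stood at 26.9279 TPM in Saline 2 (next 28.7) and Sdha at 75.3934 TPM in Saline 4 (next 89.7).

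Circular RNA of a member was flagged where it was 0 in every Saline library but not in all others. Absence from Saline thus follows from the rule. The 2 mitochondrial genes flagged were also 0 in every CDG_HDM library. Circular Atp5b, not flagged, stood at 236 TPM in Saline 5, 10.3 in Saline 10, 313 in AM155 3, 272 in Dex_CDGHDM 1 and 0 elsewhere. A relation to treatment was not tested. Circular mt-Nd2 stood at 4063.85 TPM in AM155 6, where the linear value was 264 TPM, at 5534.02 TPM in Dex_CDGHDM 2 (linear 366) and at 18.2664 TPM in Dex_CDGHDM 6. Circular mt-Cytb stood at 2393.92 TPM in AM155 11 (linear 669).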

How the results depend on the processing

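Between CDG_HDM and Saline, 13 mitochondrial and 26 nuclear genes were called lower and none higher on the deposited scale. A common sum, with or without mitochondrial rows, left 8 and 8 mitochondrial genes; median-of-ratios factors, a common sum, and a common sum without mitochondrial rows left 14, 13 and 14 nuclear genes, where 21.5%, 15.5% and 16.1% of all genes were lower. Called higher were 4, 9, 8 and 6 nuclear genes under these 3 and quantile normalization. Without the 3 libraries of high circular sums, chosen after seeing the data, 41 nuclear genes fell, where the lower calls among all 17437 genes went from 3976 to 4705. These 3 libraries belong to treated groups, so the change of each gene stayed the same and only the spread estimated over the 4 groups differed. What lay behind that spread was not tested. Leaving out 1 library gave 10 to 13 mitochondrial and 21 to 39 nuclear genes, with 10 and 21 without Saline 10 (17.2% of all genes lower) and 39 without AM155 6 (26.5% of all genes lower), and 0 in both treatment comparisons. No call changed direction. Over the named genes, pooled over the 3 main comparisons and all alternatives, 4259 values kept their side of the threshold, 33 gained and 37 lost it. All values that gained or lost it belong to CDG_HDM minus Saline, as no member was called in the treatment comparisons under any run. The pooled total therefore overstates how stable the calls of that comparison are. With a common sum alone, 4 named genes gained the call and 6 lost it. With the replicate number as a block, 9 mitochondrial and 7 nuclear genes fell, the latter 8.33% of 84 where 12.0% of all genes were called lower; the numbers do not pair the samples. TPM carries no depth, so no counting error could be given.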
